A study of Mus musculus with 2 samples.

Results

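The MHC class II genes, the invariant chain gene Cd74 and the class II transactivator gene Ciita were followed in mouse hybridoma cells labelled 1H5F9, fusion products of a B cell and a myeloma cell that secrete antibody. Total RNA was taken 4 h after exposure to 5 µg/ml of the bursal peptide BSP-II or to 0 µg/ml, and each RNA was labelled with Cy3 and hybridised alone to an Agilent whole-genome array. The groups were thus BSP-II (5 µg/ml, 1 array) and untreated (0 µg/ml, 1 array), both from cells kept in serum-supplemented medium and both on 1 slide. The study's design names 2 independent experiments, and the arrays used here are replicate 1 of each dose. Members were the 10 genes H2-Aa, H2-Ab1, H2-Eb1, H2-DMa, H2-DMb1, H2-DMb2, H2-Oa, H2-Ob, Cd74 and Ciita, each found through the RefSeq accession of its probes. Of the 10, 9 had at least 1 probe, with 14 probes and 23 spots in all, among 17298 genes that could be named on the arrays. H2-Eb1 had no probe carrying its accession and was not analysed here. Since each group was 1 array, differences had no replicates behind them and were not tested, and "higher" and "lower" describe these 2 arrays.

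MHC class II molecules are pairs of an alpha and a beta chain that show peptides from the endosomal pathway to helper T cells. The invariant chain, made from Cd74, escorts new class II pairs out of the endoplasmic reticulum and covers their groove, H2-DM exchanges its last remnant for other peptides, and H2-DO holds H2-DM back in B cells. Ciita does not bind DNA itself: it is drawn to a conserved X box and Y box in class II promoters by the RFX complex, CREB and NF-Y. B cells express all of this, and when they become plasma cells the repressor Blimp-1, made from Prdm1, silences Ciita, so that loss of class II marks the plasma cell state.

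The promoters of these genes are shown because the X and Y boxes are the shared element through which Ciita acts. RefSeq promoter windows of GRCm38.p6, from 250 bases before to 50 bases after a gene's start, were held for 7 of the 10 members. None was held for H2-Ab1, Cd74 or Ciita, so their promoters were not searched. The Y box was searched as TGATTGG and the core of the X box as CNNGNAAC, on both strands, with letters chosen after these promoters had been read. Capitals mark the Y box and, where it was found 15 to 35 bases before the Y box, the X core. Each stretch is 57 bases long and is printed 5′ to 3′ on the strand of its gene.
H2-Aa, chr17:34287859-34287915, minus strand: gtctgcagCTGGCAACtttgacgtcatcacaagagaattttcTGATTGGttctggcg
H2-Eb1, chr17:34305764-34305820, plus strand: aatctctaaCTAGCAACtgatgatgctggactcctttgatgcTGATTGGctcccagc
H2-DMb1, chr17:34153086-34153142, plus strand: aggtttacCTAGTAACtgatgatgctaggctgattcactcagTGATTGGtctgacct
H2-DMb2, chr17:34145115-34145171, plus strand: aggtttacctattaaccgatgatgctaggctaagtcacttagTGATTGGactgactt
H2-Oa, chr17:34092292-34092348, plus strand: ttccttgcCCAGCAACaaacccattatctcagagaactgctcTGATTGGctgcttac
H2-Ob, chr17:34238804-34238860, plus strand: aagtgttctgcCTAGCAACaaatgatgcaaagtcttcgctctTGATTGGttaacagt
In H2-Aa, H2-Eb1, H2-DMb1, H2-Oa and H2-Ob an X core stood before the Y box, with 26, 25, 26, 26 and 23 bases between them. H2-DMb2 had the Y box but no X core at that spacing before it, and its stretch was identical to that of H2-DMb1 at 50 of 57 bases (87.7%). Neither window of H2-DMa held the Y box letters. Of all 32851 promoter windows, 39.1% held the X core, 7.82% the Y box, and 52 (0.158%) the X core and then the Y box at that spacing. A match describes letters and is not evidence of binding.

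Of the 9 genes with a probe, 7 were well above background on both arrays, that is, called so by the scanner software at the gene's brightest probe. That is 77.8% of them, and over all named genes the share was 74.3%. Ciita was well above background on the BSP-II array only, as were 5.59% of all genes, and H2-DMb2 on neither array, as were 19.7%. The 7 did not lie at one level: Cd74, H2-Ab1 and H2-DMa were far above the limit of detection, H2-Aa was some way above it, and H2-Oa, H2-Ob and H2-DMb1 were close to it. That limit, the lowest signal of any probe called well above background, was 7.66 on the BSP-II array and 11.8 on the untreated array. Probes bind with unlike strength, so signals are set against the limit of their own array and not against each other.

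**Figure D1:**
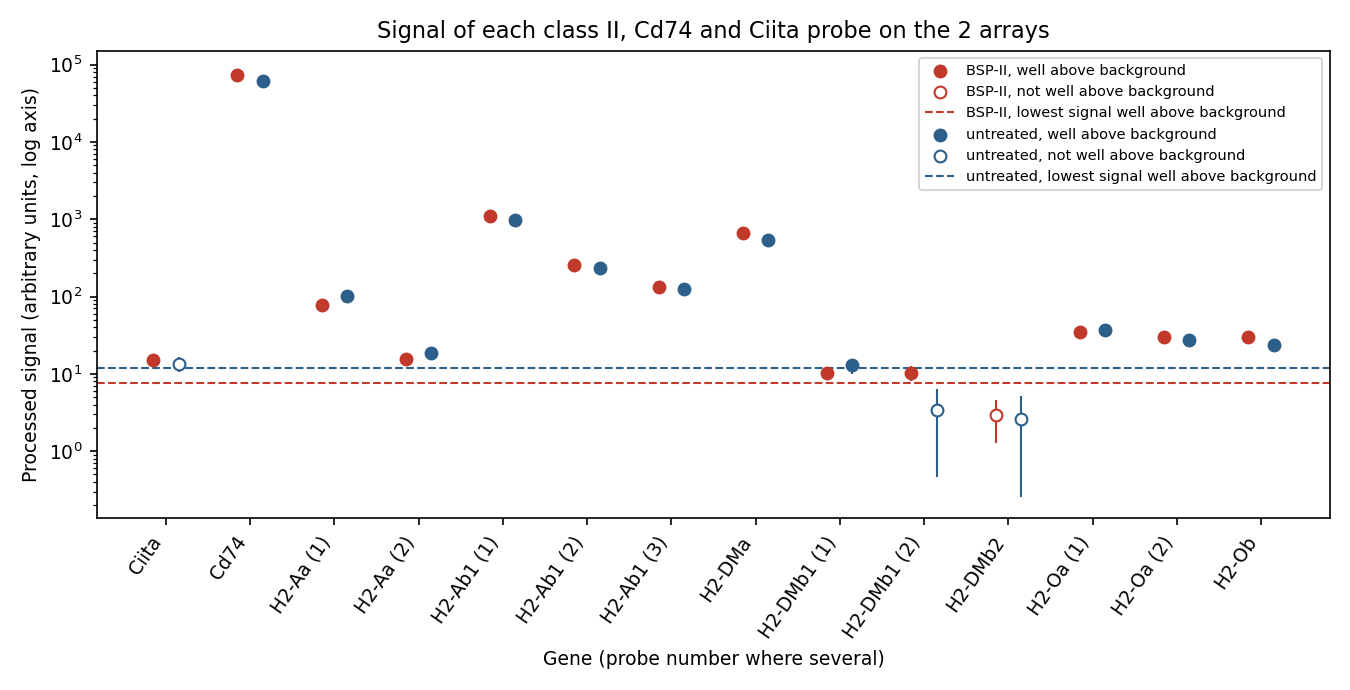
Processed signal (log axis, arbitrary units) of each of the 14 probes on the BSP-II array (red, left) and the untreated array (blue, right), with the software's spot error as bars, cut off above 0 for the log axis. Open circles are not well above background, and dashed lines mark the lowest signal well above background, 7.66 on the BSP-II array and 11.8 on the untreated array; Cd74 lies at least 5251 times above it, while Ciita, H2-DMb1 and H2-DMb2 lie near or below it.

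Ciita, the master regulator of the set, had a processed signal, which is the brightness left after background subtraction, of 14.9 ± 2.35 on the BSP-II array and 13.5 ± 3.07 on the untreated array (± the software's error of the spot). The raw brightness of that spot was 61 against a local background of 37 on the BSP-II array, and 63 against 51 on the untreated array. Its signal was 1.95 times the limit on the BSP-II array and 1.14 times on the untreated array, where it was not called well above background. By the software's other call, positive and significant, the spot passed on both arrays. No fold is given, because the bound that detection on 1 array allows came to less than 1. At this signal neither a difference nor its absence could be seen.

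Cd74 was far above the limit on both arrays. Its 1 probe, designed to accession NM_001042605, gave 73091 ± 7309 on the BSP-II array and 62101 ± 6210 on the untreated array, 9548 and 5251 times the limit of each array, and the spots were not saturated. Signals were compared after dividing each by the array's 75th percentile, 356 on the BSP-II array and 309 on the untreated array. On that scale Cd74 differed by a log2 of 0.03, BSP-II minus untreated, with a spot error of 0.20. Cd74 was thus strongly detected on the same 2 arrays on which the only Ciita probe read near background. Because probes bind with unlike strength, the signals do not show how much of each message was present.

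The classical chain genes H2-Aa and H2-Ab1 encode the alpha and beta chain of the I-A molecule. H2-Aa had 2 probes, and both were lower on the BSP-II array. The brighter gave 78.1 ± 7.98 on the BSP-II array and 100.1 ± 10.3 on the untreated array, a log2 difference of −0.56 (1.48-fold lower, spot error 0.21). At the dimmer probe the signals were 15.4 ± 2.26 on the BSP-II array and 18.3 ± 3.18 on the untreated array, a log2 difference of −0.46 with a spot error of 0.33. H2-Aa was the only member whose brightest probe differed by more than 2 spot errors (2.69). The software gave an error of 10% of the signal at bright spots such as Cd74, so it is not a spread measured over repeats. At the H2-Ab1 probe with repeat spots it was 0.20 for the log2 difference, against an SD of 0.03 over 9 spots. No cultures, RNA samples or hybridisations were repeated here, so how these vary is not known. Of 600 genes within 0.25 of its mean log2 signal, 7.17% had a lower difference, and their quartiles were −0.30 and 0.14. Neither probe lay beside clustered spots, meaning 2 or more spots, at most 3 rows and 3 columns away, that were 2-fold different or more the same way, and the median difference of spots around them was −0.06 at the brighter and −0.05 at the dimmer.

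H2-Ab1, the partner chain, had 3 probes with log2 differences of −0.02, −0.07 and −0.13. Its brightest probe gave 1114 ± 111 on the BSP-II array and 977 ± 97.7 on the untreated array. The dimmest gave 131 ± 13.2 on the BSP-II array and 124.5 ± 12.7 on the untreated array. The third was printed at 10 spots, of which 1 was flagged as an outlier and left out. Over the other 9 spots its signal ran from 240.9 through a median of 252 to 263 on the BSP-II array, and from 221 through a median of 232 to 241 on the untreated array. Every spot was brighter on the BSP-II array before scaling, and the scaled log2 difference was −0.07 ± 0.03 (SD over 9 spots, range −0.10 to −0.02). Those spots lay in rows 131 to 529 of the array, and at least 1 of them had clustered neighbours. The 2 chains therefore gave unlike values, −0.56 and −0.46 against −0.13 to −0.02, and with 1 array per group that gap could not be tested.

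**Figure D2:**
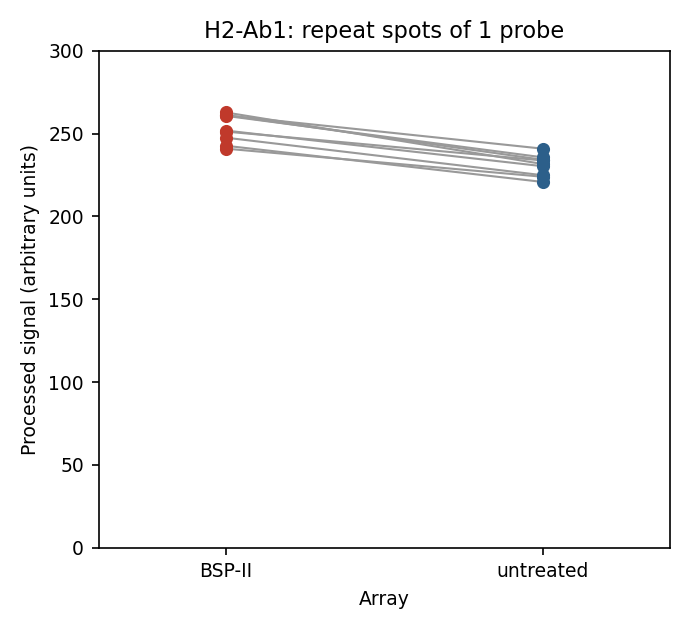
Processed signal, before scaling, of the 9 unflagged repeat spots of 1 H2-Ab1 probe on the BSP-II array (red, left) and the untreated array (blue, right), with lines joining the same spot. All spots were brighter on the BSP-II array, from 240.9 to 263 against 221 to 241, and after scaling to the arrays' 75th percentiles the mean log2 difference was −0.07.

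The H2-DM heterodimer, which edits the peptides, showed its alpha chain gene clearly and its beta chain genes hardly at all. H2-DMa gave 657 ± 65.7 on the BSP-II array and 534 ± 53.5 on the untreated array, 85.9 and 45.2 times the limit, with a log2 difference of 0.09 (spot error 0.20). H2-DMb1 had 2 dim probes that went opposite ways. At the first the signals were 10.2 ± 1.89 on the BSP-II array and 12.8 ± 2.77 on the untreated array, a log2 difference of −0.53 with a spot error of 0.41. The 97 genes within 0.25 of that mean log2 signal had a median of −0.53, so H2-DMb1 lay at the middle of genes of like signal. At the second probe the signals were 10.3 ± 2.19 on the BSP-II array and 3.45 ± 2.99 on the untreated array. That probe was well above background on the BSP-II array only, its bound came to less than 1, and its spot had clustered neighbours. H2-DMb2 gave 2.94 ± 1.64 on the BSP-II array and 2.57 ± 2.56 on the untreated array, below the limit on both. H2-DMb1 and H2-DMb2 are closely related neighbours and probe sequences were not used here, so how far a probe of one also reads the other was not tested.

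H2-Oa and H2-Ob encode the chains of H2-DO, the brake on H2-DM. Both were detected at low signal. H2-Oa gave 35.1 ± 3.85 on the BSP-II array and 36.6 ± 4.40 on the untreated array at its brighter probe (log2 difference −0.26, spot error 0.23). Its other probe gave 29.6 ± 3.37 on the BSP-II array and 27.1 ± 3.70 on the untreated array (−0.08, spot error 0.26). H2-Ob gave 30.3 ± 3.62 on the BSP-II array and 23.8 ± 3.83 on the untreated array (0.14, spot error 0.29). These signals were 3.87 to 4.59 times the limit on the BSP-II array and 2.01 to 3.09 times on the untreated array, and each log2 difference was smaller than or close to its spot error. The genes with a probe whose promoters were seen to hold the X core and Y box pair were H2-Aa, H2-DMb1, H2-Oa and H2-Ob. At their brightest probes their signals were 1.34 to 10.2 times the limit on the BSP-II array and 1.08 to 8.47 times on the untreated array. The brighter members Cd74 and H2-Ab1 had no promoter window to search, so these values do not relate the pair to the signal.

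**Figure D3:**
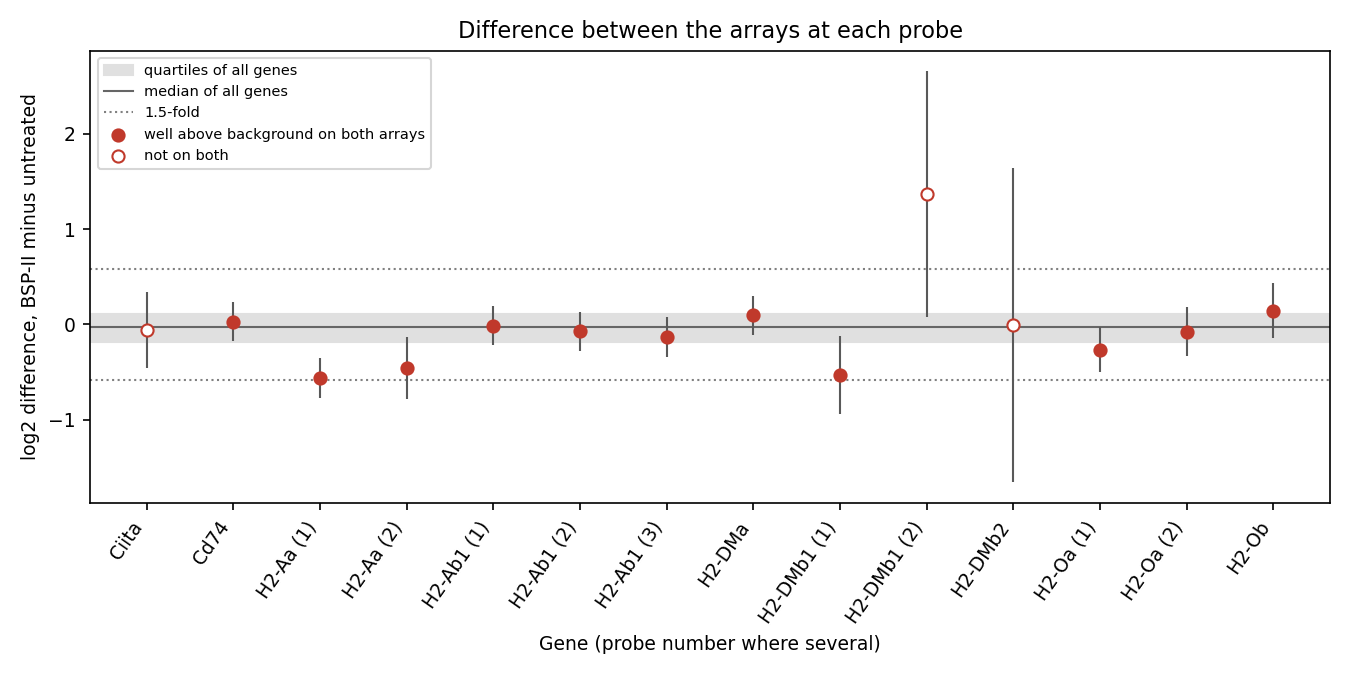
The log2 difference of each probe, BSP-II minus untreated, after scaling to the 75th percentile, with the spot error as bars; the grey band holds the middle of all genes (quartiles −0.18 and 0.11) and dotted lines mark 1.5-fold. Filled probes were well above background on both arrays and all lie within 1.5-fold, with H2-Aa (−0.56 and −0.46) and H2-DMb1 (−0.53) lowest.

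By the brightest probe, 0 of the 7 genes measured on both arrays differed by at least 1.5-fold. Among all 12849 genes measured on both, 6.05% did, 1.21% higher and 4.83% lower with BSP-II. The median log2 difference of the 7 was −0.02, and that of all genes was −0.03. The members ran from −0.56 (H2-Aa) to 0.14 (H2-Ob), and 4 of 7 lay above the all-gene median. With the arrays' medians as the scale every value gains 0.12, which turns the median of the members to 0.11 and that of all genes to 0.10. The small signs of H2-Ab1 and of the set as a whole thus follow the scaling, while both probes of H2-Aa were negative under each scaling tried. The brightest probes of H2-Oa and H2-DMb1 were negative too, but the other H2-Oa probe turned to 0.04 with median scaling and the other H2-DMb1 probe was at 1.37 on the reported scale.

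The genes around the set were read from lists of the pathway. For all lists below, the all-gene shares are 74.3% measured on both arrays and, of those, 1.21% at least 1.5-fold higher and 4.83% lower. All 13 listed promoter factors were measured on both arrays. Of them, 0 were at least 1.5-fold higher and 1 was lower, and their median was −0.03. The RFX subunits, which hold the X box, were present: Rfxank gave 522 on the BSP-II array and 462 on the untreated array (−0.03), and Rfxap gave 918 on the BSP-II array and 801 on the untreated array (−0.01; other probe 0.22). Rfx5 gave 142 on the BSP-II array and 116 on the untreated array (0.09), with −0.78 at a much dimmer probe. Crebbp, a coactivator acetyltransferase recruited by Ciita, was the 1 lower factor, at −0.68 with signals of 22.7 on the BSP-II array and 31.7 on the untreated array. Its relative Ep300 was at 0.13 and at −0.55 by its other probe. Kat2b, another acetyltransferase, was at −0.09, and Zxdc, a zinc finger protein that binds CIITA, at −0.30 with 0.07 at its other probe. The brighter Rfx5 spot and the dimmer Ep300 spot had clustered neighbours.

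Interferon gamma induces Ciita in many cells through its receptor and JAK kinases. The 8 genes of that route were all measured, 0 of them at least 1.5-fold different, with a median of 0.06. The receptor chain Ifngr1 was at 0.16, Jak1 at 0.13 (other probe 0.27) and the feedback inhibitor Socs1 at 0.16.

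Enzymes that cut antigens and the invariant chain were all measured, 12 of 12, with a median of 0.06. Of these 0 were at least 1.5-fold higher and 1 was lower. Ctss, which trims the invariant chain in B cells, had a signal of 139216 on the BSP-II array and 128557 on the untreated array (−0.09), named after its values were seen. Sppl2a, the intramembrane protease that clears the last membrane fragment of Cd74, was the 1 lower gene, at −0.62 with signals of 68.9 on the BSP-II array and 92.2 on the untreated array. Its spot had clustered neighbours. Cd63, a lysosomal tetraspanin, was at 0.43, the protease Ctsl at 0.28 and Lamp1 at 0.23.

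Genes of class II turnover and costimulation had a median of 0.01 over 7 measured genes, with 0 at least 1.5-fold different. The costimulatory ligands went opposite ways: Cd80 gave 114 on the BSP-II array and 67.8 on the untreated array (0.54), and Cd86 gave 93.6 on the BSP-II array and 105.8 on the untreated array (−0.38; other probe −0.72). Ubiquitin ligases of the family that removes class II from the surface were at 0.40 (Marchf8) and −0.16 (Marchf1). In the class II region itself, 4 of 5 genes with a probe were measured on both arrays, with a median of −0.05. They are class I pathway genes: Tap2 was at 0.29, Tap1, with clustered neighbours, at 0.04, Psmb9 at −0.26 and Psmb8 at −0.13 (other probe 0.05). H2-Eb2, a further class II beta chain gene, was not well above background on either array.

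Class I presentation, measured by 11 of 11 genes with a probe, had a median of −0.15 against −0.02 for the class II members, and 0 of 11 were at least 1.5-fold different. H2-K1 was at −0.21 over 10 spots (at least 1 of them with clustered neighbours), H2-D1 at −0.21, Calr at −0.28 and Erap1 at 0.27. The difference between the class I and class II sets was not tested. Nlrc5, the class I counterpart of Ciita, had no probe by accession.

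**Figure D4:**
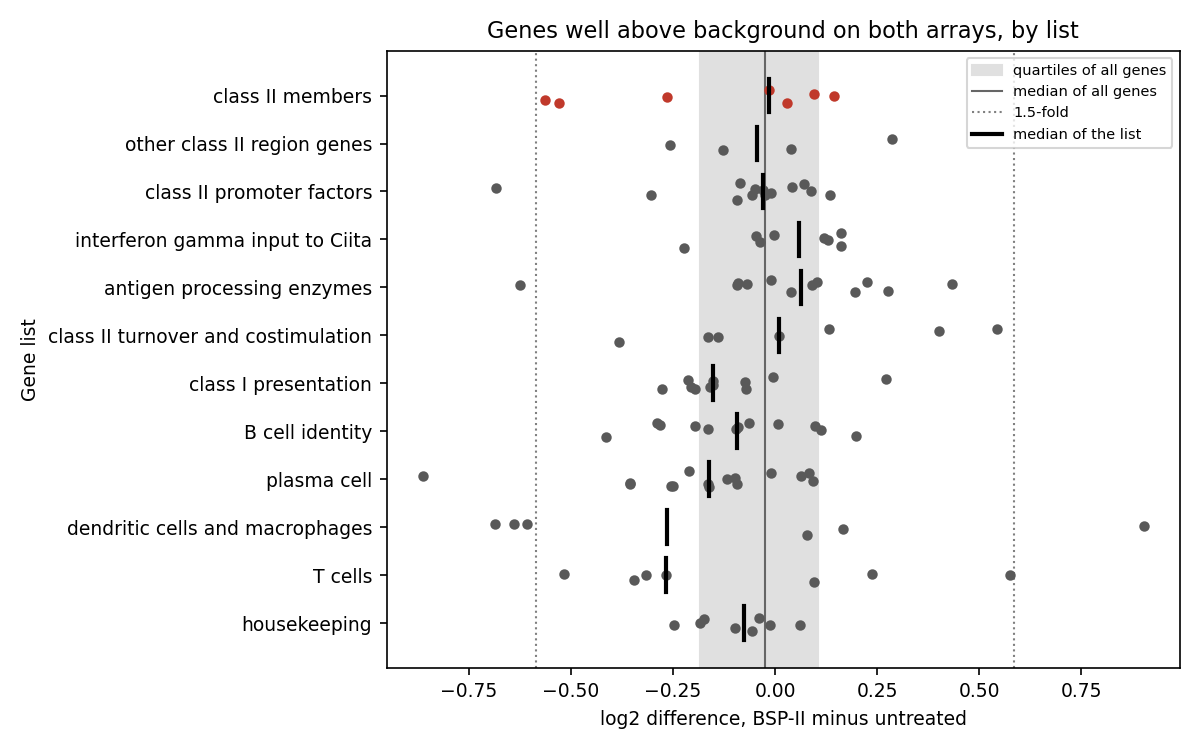
Log2 differences (BSP-II minus untreated) of the genes measured on both arrays, one row per list, with the class II members in red at the top, the median of each list as a black bar, all-gene quartiles in grey and 1.5-fold as dotted lines. The class II members have a median of −0.02 and lie within 1.5-fold, as do the promoter factors apart from Crebbp.

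Markers were checked against the labelled cell. All 15 plasma cell genes were measured on both arrays, with a median difference of −0.16, and included Prdm1 (4974 on the BSP-II array, 4829 on the untreated array; −0.16), Xbp1 (0.09), Irf4 (−0.25), Derl3 (−0.36) and Eaf2 (−0.86, other probe −0.08). Of 15 B cell genes with a probe, Ciita among them, 12 were measured on both arrays. Pax5, which keeps B cell identity and is silenced in plasma cells, was not well above background on either array, while Ms4a1 gave 1408 on the BSP-II array and 1628 on the untreated array (−0.41). Of 10 genes with a probe that mark dendritic cells and macrophages, cells that themselves express class II, 6 were measured on both arrays. Itgax, Cd209a and Lyz2 were not well above background on either. The summed signal of that list before scaling was 806 on the BSP-II array and 898 on the untreated array. After scaling its median log2 difference was −0.26. Of the 6, 1 was at least 1.5-fold higher (Csf1r, 0.90, with −0.75 and −0.06 at its other probes) and 3 were lower (Cd14, Mrc1 and Xcr1). Over all genes measured on both arrays the shares were 1.21% higher and 4.83% lower, and the list was not tested against them. T cell genes, 7 of 9 with a probe measured on both arrays, summed to 945 on the BSP-II array and 895 on the untreated array before scaling, and after it their median log2 difference was −0.27. Several genes of both lists were dim, and dim genes lay lower as a whole. Genes within 0.25 of the mean log2 signal of H2-Oa and of H2-Ob had medians of −0.17 and −0.19. The lists were not set against genes of like signal. Both samples are labelled as hybridoma cells only, and signal on these lists does not show that other cell types were present. Whether any such cells were present, or had a part in the H2-Aa value, was not tested. In bulk RNA fewer cells of a type and less RNA per cell cannot be told apart.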

How the data were processed

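Per the submitters' processing notes, the single-colour arrays were read with Agilent Feature Extraction 10.5.1.1. Intensity values in the deposited scanner files are, per the file headers, a background-subtracted processed signal with its error and the raw median brightness of spot and local background. The deposited flags (unit "other") are the software's calls of outlier, saturated, positive and well above background spots. The value table deposited by the authors holds log2 values of 23296 probes. Adding 1 number per array (−4.94 for BSP-II, −4.85 for untreated) to the log2 processed signal gives them within 0.001 for 99.7% of the probes, so scale and direction are known from the values and how that number was set is not. Column medians were 2.99 (BSP-II) and 2.88 (untreated).

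Probe accessions, versions dropped, were looked up in a RefSeq table of GRCm38.p6, used only for names since the array grid is on mm9. Of 41163 probes, 25083 found 1 gene. Control spots and 189 outlier spots were left out, log2 processed signals were reduced by each array's 75th percentile, and spots of a probe were averaged. A probe counted as well above background where all its spots were, and a gene was read at its brightest probe. The number of arrays, 1 per group, limits the precision. The median SD of repeat spots was 0.07 over 149 probes with at least 5 spots, and negative controls had an SD of 1.40 (BSP-II) and 1.91 (untreated).

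The members and gene lists were chosen with earlier results of these data known. All members were named with every probe, with up to 4 measured genes of each list by size of difference, and Prdm1, Pax5, Xbp1, Irf4, Rfx5, Rfxap, Rfxank and Nlrc5; some are not reported here. Housekeeping genes, 8 of 8 measured, had a median of −0.08. Likeness of pattern cannot be measured with 2 arrays. Simulated data tested the scaling only, with changed probes placed above the signals of Ciita, H2-DMb1, H2-DMb2, H2-Oa and H2-Ob. The reading of a gene from its probes was checked on a small made-up example. Detection calls, bounds and neighbouring spots were not simulated. Python 3.11.15 with numpy 2.4.6 and pandas 2.3.3, and limma 3.58.1 in R 4.3.3 for the normexp and loess alternatives, were used.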

Additional observations from a re-analysis of the deposited data

How the results depend on the processing

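Tried beside the reported setting were loess, quantile and median scaling, the authors' deposited values, normexp (offset 50) with quantile scaling, the raw spot signal, other filters on dim probes, the median over a gene's probes and a 2-fold threshold. Subtraction of the local median within 10 rows and columns was chosen after seeing the data. The files hold no mean spot signal, so normexp used the median. The count of members measured on both arrays ran from 6 (the authors' value table, which leaves out H2-DMb1) to 9 (no filter), and was 8 with positive and significant spots, which adds Ciita. The count at the fold threshold was 0 in all 11 alternatives. The median of the members ran from −0.14 (raw spot signal) to 0.13 (authors' value table), negative in 7 of 10. H2-Aa stayed negative in all 10, from −0.56 to −0.31, and moved by more than its spot error with normexp, at −0.31, an offset that shrinks differences of dim spots. By their brightest probes or the median of their detected probes, H2-DMb1 was negative in 9 of 9 (−0.53 to −0.13) and H2-Oa in 10 of 10. All alternatives reread the same 2 arrays, so a sign that repeats among them is not separate evidence. On the reported scale the brightest probe of H2-Oa lay within the quartiles of genes of like signal. For H2-DMb1 that comparison tells nothing, because the detection filter favours lower values at so dim a signal. The other H2-Oa probe was positive with median (0.04), quantile (0.04), loess (0.03), normexp (0.03) and the authors' values (0.04), and the other H2-DMb1 probe, detected on 1 array only, was positive in all but the raw spot signal (−0.08). Cd74 (0.03 to 0.15) and H2-DMa (0.09 to 0.22) were positive in all 10. H2-Ab1 (−0.08 to 0.11) and H2-Ob (−0.14 to 0.27) changed sign. No paired analysis was possible because each group has 1 array. Low signal over background limited the readings of Ciita, H2-DMb1 and H2-DMb2.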
